A study of Mus musculus with 15 samples.

Results

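The genes described here are 10 matrix and cell-surface genes grouped under the matrix of activated fibroblasts: Fn1, Sparc, Tnc, Tnn, Tnxb, Postn, Spon1, Cthrc1, Fap and Lrrc15. They were chosen by name, as the rows of the deposited count table whose Ensembl identifier carries 1 of these symbols in the GENCODE M21 annotation, and they are 10 of 33340 genes in that table. All 10 passed the filter on low counts, Lrrc15 only through libraries after bleomycin, and were among the 17457 genes tested. The samples were polyadenylated RNA of whole lung from male adult C57BL/6 mice, a common inbred strain. The day 7, day 14 and day 21 groups of 4, 4 and 3 libraries came from mice treated once, through the trachea, with 5 U/kg of bleomycin, an agent that breaks DNA strands and leaves scarred lung. The day 0 group of 4 libraries carries the treatment label none, except for replicate 4. The title and time point of replicate 4 say day 0 but its treatment label names bleomycin, and it was kept at day 0. No vehicle group was among the samples, so instillation and time cannot be told apart from the drug. The study calls its replicates biological, but the labels do not tie the libraries of a day to separate animals. The p-values measure the spread between these libraries.

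Libraries held 15652008 to 18020661 counts, and 22100 to 23970 genes had at least 1 count in each. Levels are given as CPM, the usual scaling of counts by library size after TMM adjustment, and as CPM per kb of exon where genes are compared with each other. A gene was called where its edgeR adjusted p, taken over all 17457 genes, was under 0.05 and it changed by more than 1.5-fold. As a check of the labelled tissue, the alveolar epithelial genes Sftpc, Sftpb, Sftpa1, Ager and Hopx summed to 26762 to 36924 CPM at day 0 and 5184 to 11224 CPM at day 21. The share of counts from 16 mitochondrial genes was 2.28% and 2.31% in day 0 replicates 1 and 2, 4.22% and 4.04% in day 0 replicates 3 and 4, and 2.03% to 2.15% at day 7. In day 14 replicate 1 the share was 2.10%, below the 3.74% to 4.14% of the other day 14 libraries, and the day 21 libraries had 2.66% to 4.01%.

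Fibroblasts that repair a wound lay down a provisional matrix before collagen accumulates. Fibronectin, encoded by Fn1, is the scaffold on which other fibres assemble and is bound by integrins. The tenascins (Tnc, Tnn and Tnxb), periostin (Postn), Sparc and spondin 1 (Spon1) are matricellular proteins, which sit in the matrix and tune adhesion and collagen assembly more than they bear load. Cthrc1 is a secreted protein known as a marker of collagen-producing fibroblasts of scarred lung, Fap is a cell-surface protease of activated fibroblasts, and Lrrc15 is a membrane protein known from fibroblasts exposed to TGF-beta.

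RefSeq promoter windows, the 250 bases before an annotated start on GRCm38.p6, were matched by symbol for 6 of the 10 members: Tnn, Postn, Tnc, Sparc, Lrrc15 and Tnxb. Those without a window were Fn1, Cthrc1, Spon1 and Fap. The windows of 4 members are shown because these members had the highest rises (Tnc and Lrrc15), the fall (Tnxb) and the smallest of the rises called at days 14 and 21 (Postn) described below. Tnc and Postn each had 2 windows, and the one whose start lies within 50 bases of a GENCODE transcript start is shown. Each is written 5′ to 3′ on the strand of the gene, with matches to the searched motifs in capitals.
Tnc, chr4:64047016-64047265, minus strand: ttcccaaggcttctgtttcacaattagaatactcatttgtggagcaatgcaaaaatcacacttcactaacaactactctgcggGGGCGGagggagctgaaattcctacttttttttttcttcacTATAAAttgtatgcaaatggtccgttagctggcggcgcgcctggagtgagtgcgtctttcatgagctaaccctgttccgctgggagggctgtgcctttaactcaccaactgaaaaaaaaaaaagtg
Lrrc15, chr16:30283255-30283504, minus strand: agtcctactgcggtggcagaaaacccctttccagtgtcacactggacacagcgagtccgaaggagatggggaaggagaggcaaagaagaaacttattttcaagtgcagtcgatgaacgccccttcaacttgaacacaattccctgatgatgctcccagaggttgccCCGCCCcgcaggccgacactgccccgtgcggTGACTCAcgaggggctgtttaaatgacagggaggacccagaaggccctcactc
Postn, chr3:54360857-54361106, plus strand: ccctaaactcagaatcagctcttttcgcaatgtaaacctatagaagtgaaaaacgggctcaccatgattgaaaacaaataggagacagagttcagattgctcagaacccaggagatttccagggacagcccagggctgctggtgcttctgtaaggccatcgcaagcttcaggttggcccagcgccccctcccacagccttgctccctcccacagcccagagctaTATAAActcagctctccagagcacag
Tnxb, chr17:34670285-34670534, plus strand: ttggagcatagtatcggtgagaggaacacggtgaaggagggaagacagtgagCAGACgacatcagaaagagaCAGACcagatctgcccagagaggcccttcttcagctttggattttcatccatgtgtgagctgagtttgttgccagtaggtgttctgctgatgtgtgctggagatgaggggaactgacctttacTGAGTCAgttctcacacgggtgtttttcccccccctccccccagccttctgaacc

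The motifs searched were the TATA box TATAAN on the strand of the gene, and on both strands the SMAD motif CAGAC, the AP-1 motif TGANTCA, the TEAD motif GGAATG and the GC box GGGCGG. They were chosen with the results known. As TATAAA, the TATA box began 26 bases before the Postn start and 126 bases before the Tnc start. This motif was found in 16% of the 32851 windows in the RefSeq table. The AP-1 motif was found 53 bases before the Lrrc15 start as TGACTCA and 55 bases before the Tnxb start as TGAGTCA, and 6.75% of all windows held it. It was therefore present before a gene that rose and before the gene that fell. The SMAD motif was found at 2 places in the Tnxb window, in the Sparc window, in the other windows of Tnc and Postn, and in 42.2% of all windows. The GC box was found in the Tnc and Lrrc15 windows and in 32.7% of all windows, and the TEAD motif, in 12.6% of all windows, was in the Tnn window and in none of the 4 shown. These matches are letters in a window, and no binding was measured. The other Tnc window, whose start lies over 50 bases from every GENCODE transcript start, also held a TATA box 27 bases before its start as TATAAG.

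Per kb of exon, the members covered a wide range of levels before injury. Sparc was highest at day 0 with 530.5 ± 18.5 CPM per kb (SD, n = 4), rank 43 of 17437 genes by this measure. Fn1 at 35.3 ± 6.94 and Spon1 at 32.2 ± 3.81 CPM per kb followed and did not differ beyond their spread, and Postn at 21.7 ± 2.68 and Tnxb at 12.4 ± 2.20 CPM per kb came next. Cthrc1 at 2.00 ± 0.463 and Tnn at 1.87 ± 0.215 CPM per kb lay within their spread of each other. Tnc followed at 1.27 ± 0.370 CPM per kb, and its libraries overlapped those of Cthrc1. Fap at 0.240 ± 0.0894 and Lrrc15 at 0.0148 ± 0.0155 CPM per kb were lowest. By day 21 the order had changed. Sparc stayed highest at 1519 ± 87.5 CPM per kb (SD, n = 3), rank 14, followed by Fn1 at 439.8 ± 109.6 CPM per kb, which moved from rank 1271 to rank 51. Tnc at 48.6 ± 25.8 CPM per kb moved from rank 12869 to rank 950, and it did not differ from Postn at 44.4 ± 12.4 CPM per kb beyond their spread. Spon1 at 31.2 ± 1.76 and Cthrc1 at 17.2 ± 10.5 CPM per kb came next. Tnxb at 3.80 ± 1.16 and Tnn at 3.78 ± 3.73 CPM per kb overlapped, as did Lrrc15 at 0.705 ± 0.531 and Fap at 0.539 ± 0.111 CPM per kb.

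**Figure D1:**
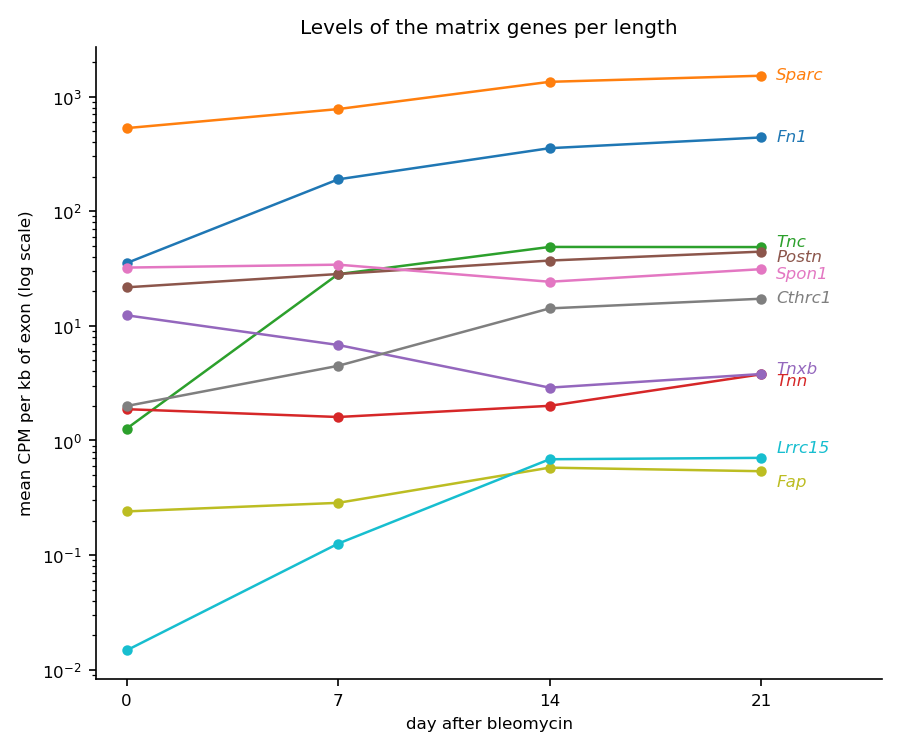
Mean CPM per kb of exon of each member (log scale) against the day after bleomycin, with 4 libraries at days 0, 7 and 14 and 3 at day 21. Tnc crosses from 1.27 to 28.2 CPM per kb between day 0 and day 7, Lrrc15 climbs from 0.0148 to 0.686 by day 14, and Tnxb descends from 12.4 to 2.89 by day 14.

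Against day 0, 3 members were called higher at day 7 (Fn1, Tnc and Lrrc15) and 1 lower (Tnxb), where 8.78% of all genes tested were called higher and 7.36% lower. At day 14, 7 were called higher (Fn1, Sparc, Tnc, Postn, Cthrc1, Fap and Lrrc15) and 1 lower (Tnxb), against 12.0% and 11.2% of all genes. The same 7 and 1 members were called at day 21, against 12.4% and 10.1% of all genes. Tnn and Spon1 were called in none of the 3 comparisons, so that with Tnxb 3 of the 10 members did not share the rise of the other 7. These comparisons share the day 0 libraries. The median log2 fold change over the 10 members was 0.47 at day 7, 1.30 at day 14 and 1.34 at day 21, beside 0.01, 0.02 and 0.02 over all genes tested. In whole lung, more cells of a type and more RNA per cell cannot be told apart.

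**Figure D2:**
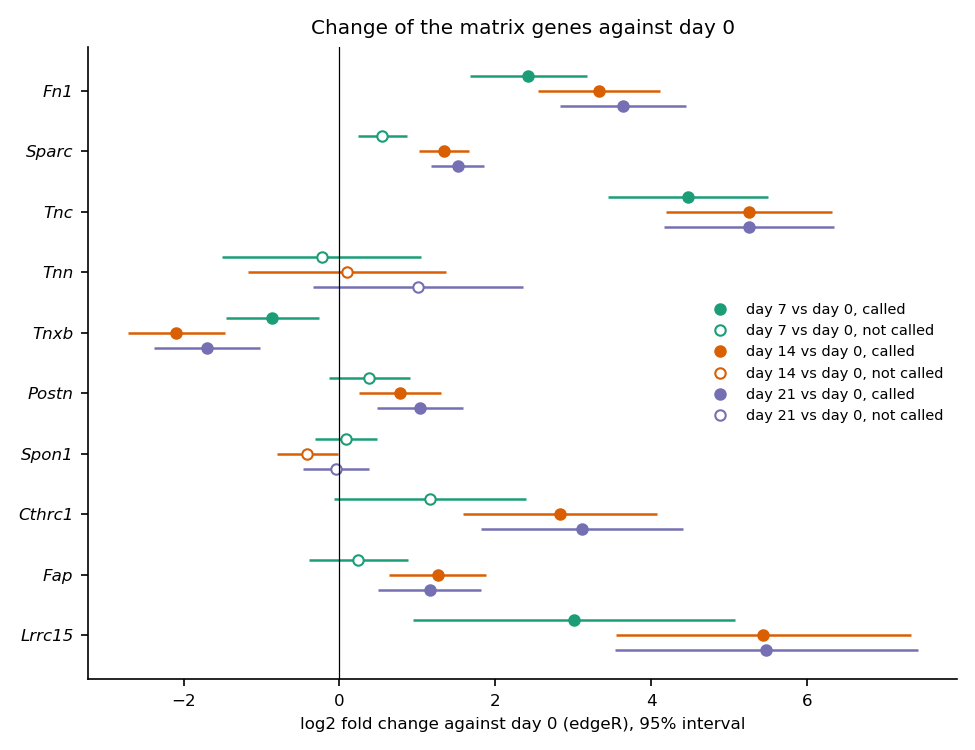
Log2 fold change of each member against day 0 (edgeR, 1 fit of 15 libraries), with its 95% interval as a line. Filled points passed both thresholds of a call. Tnc lies furthest right at day 7 with 4.47, Tnxb is the member left of 0 on all 3 days, and the intervals of Tnn and of Spon1 at days 7 and 21 cross 0.

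The libraries of 3 members at day 7 (Fn1, Sparc and Tnc) lay above every day 0 library and those of 1 (Tnxb) lay below, where 17.6% and 13.2% of all genes did so. At day 14 there were 7 members above and 1 below, against 16.8% and 14.4% of all genes. At day 21 there were again 7 above and 1 below, against 19.4% and 16.0% of all genes.

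**Figure D3:**
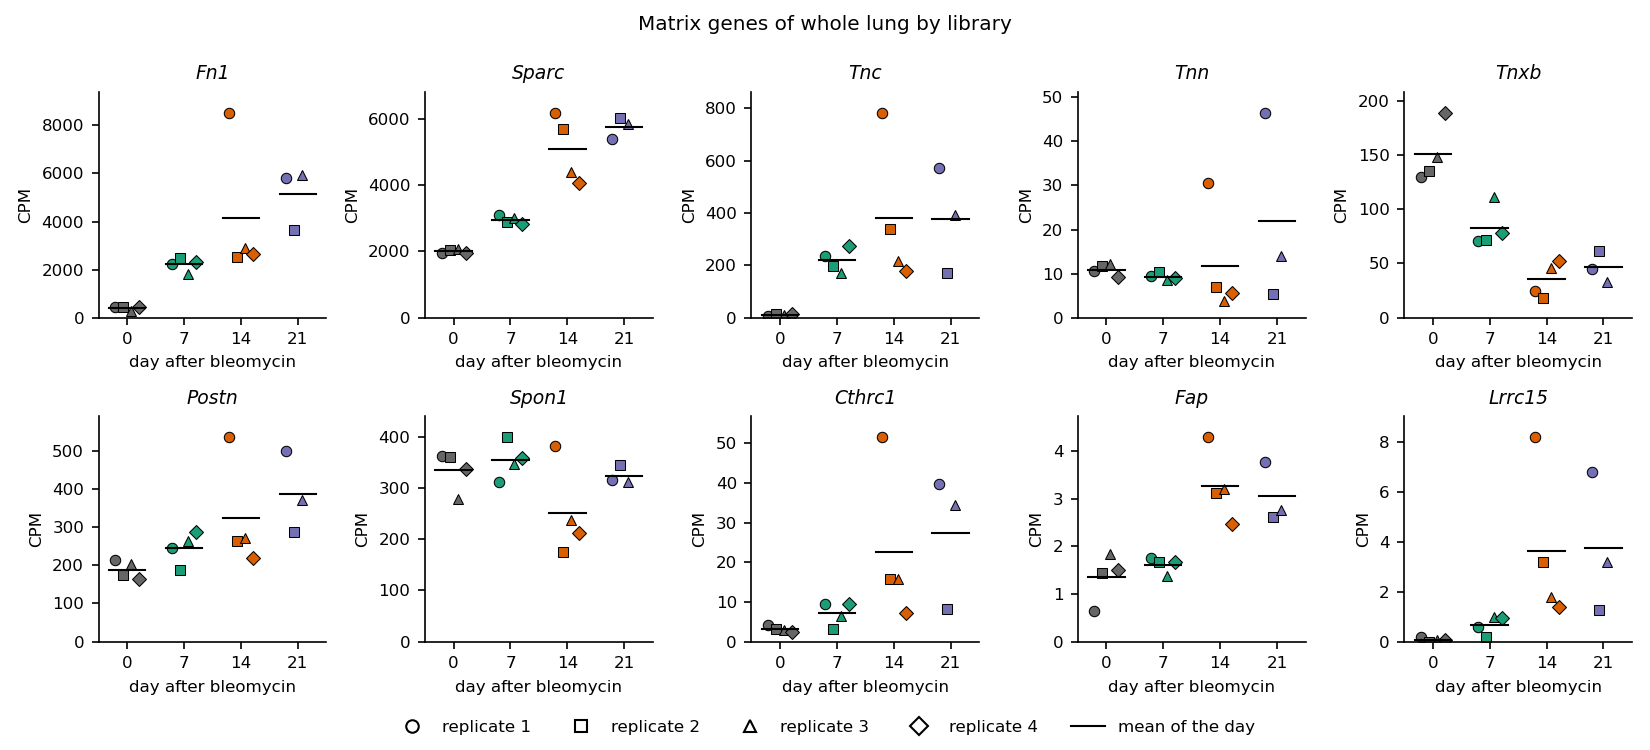
CPM of each member in each library (linear axes from 0, a separate scale for each gene) against the day after bleomycin, with marker shape giving the replicate number and a line giving the mean of the day. Day 14 replicate 1 (circle) is the highest library of day 14 in 9 of 10 panels, and in Tnn it stands at 30.5 CPM above the other 3 at 3.72 to 6.89 CPM.

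Fn1 (ENSMUSG00000026193, chr1:71585520-71653200 on mm10, minus strand, 11685 bases of exon) was at 449, 455, 291 and 454 CPM at day 0. It was at 2246, 2484, 1833 and 2297 CPM at day 7, at 8539.9, 2514, 2877 and 2639 CPM at day 14, and at 5826, 3662 and 5931 CPM at day 21. All 11 libraries after bleomycin lay above all 4 of day 0, and at day 14 replicate 1 stood over the rest. The log2 fold change was 2.43 ± 0.35 (SE) at day 7, with an adjusted p of 0.000301. It was 3.33 at day 14 (adjusted p 1.12e-05), or 2.68 without day 14 replicate 1 (adjusted p 1.23e-06), and 3.64 at day 21 (adjusted p 1.22e-05). With an edgeR adjusted p of 0.0391, Fn1 also rose between day 7 and day 21, by 1.21 on the log2 scale. That call was lost without any single day 7 library or without day 21 replicate 1 or 3, at adjusted p up to 0.122 and log2 differences of 1.07 to 1.27. Exons of the antisense gene Apol7d on the other strand overlap 292 bases of Fn1 exon, 2.5% of its length, and the strand setting of the counting was not stated.

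Sparc (ENSMUSG00000018593, chr11:55394500-55423183, minus strand, 3788 bases of exon), which binds collagen, had replicates close to each other at days 0 and 7. It was at 1938, 2049, 2087 and 1963 CPM at day 0 and at 3087, 2879, 2997 and 2817 CPM at day 7. It was at 6199.8, 5707, 4390.2 and 4072 CPM at day 14 and at 5389, 6035 and 5842 CPM at day 21. The day 0, day 7 and later libraries formed 3 bands with no overlap, and those of days 14 and 21 overlapped. At day 7 the fold change was 1.47 (log2 0.55, adjusted p 0.0146), just under the fold threshold of 1.5, so Sparc was not called. Later log2 fold changes were 1.34 at day 14 (adjusted p 1.34e-05) and 1.52 at day 21 (adjusted p 1.22e-05). It was called in each fit that left out a library at days 14 and 21. Sparc also rose from day 7 to day 14 by 0.79 (adjusted p 0.0101) and from day 7 to day 21 by 0.97 (adjusted p 0.0028) on the log2 scale.

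Fn1 and Sparc together made up 76.6% to 78.4% of the summed CPM of the 10 members at day 0 and 88.0% to 91.7% at day 21. The summed CPM was 3033 to 3201 at day 0, 5742 to 6236 at day 7, 7390.4 to 16563 at day 14 and 10579 to 12933 at day 21. Fn1 alone went from 9.58% to 14.5% of that sum at day 0 to 34.6% to 45.9% at day 21.

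The tenascins went 3 ways. Tnc (tenascin C, ENSMUSG00000028364, chr4:63959785-64047015, minus strand, 7772 bases of exon), which is scarce in the resting adult lung and is made at sites of repair, was at 6.47, 12.2, 8.44 and 12.3 CPM at day 0. It was at 236, 199, 170.5 and 273 CPM at day 7, at 784, 337, 215 and 179 CPM at day 14, and at 572, 172 and 391 CPM at day 21. Day 0 and the later libraries did not overlap, and the lowest later library was far above the highest of day 0. Its log2 fold change of 4.47 ± 0.48 (SE, adjusted p 4.17e-05) at day 7 ranked 39 among the 17457 genes. The values were 5.26 at day 14 (adjusted p 3.96e-06), or 4.60 without day 14 replicate 1, and 5.26 at day 21 (adjusted p 7.23e-06). Between day 7 and day 14 the log2 difference was 0.79 ± 0.41 (adjusted p 0.25, interval -0.09 to 1.67), and it was 0.15 without day 14 replicate 1. The gene 8030451A03Rik on the other strand overlaps 176 bases of Tnc exon.

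Tnxb (tenascin X, ENSMUSG00000033327, chr17:34670535-34719815, plus strand, 12209 bases of exon), a tenascin of resting connective tissue that is needed for normal collagen fibres, was the member that fell. It was at 130.1, 135, 148 and 189.5 CPM at day 0 and at 70.7, 71.6, 112 and 78.6 CPM at day 7. It was at 24.2, 18.3, 46.2 and 52.3 CPM at day 14 and at 44.6, 61.3 and 33.2 CPM at day 21. Day 7 lay below day 0, and days 14 and 21 lay below both, with no overlap. The log2 fold change was -0.86 ± 0.28 (SE) at day 7 (adjusted p 0.037), -2.10 at day 14 (adjusted p 8.94e-05) and -1.70 at day 21 (adjusted p 0.00109). The day 7 call was lost without day 0 replicate 3 or 4 or without day 7 replicate 1, 2 or 4, at adjusted p 0.0629 to 0.104 and log2 fold changes of -0.89 to -0.75. It was also lost with the mitochondrial share in the fit, at -0.53 and an adjusted p of 0.312. Tnxb fell further from day 7 to day 14, by 1.24 on the log2 scale (adjusted p 0.0219). This call was lost without day 7 replicate 3 or 4 or day 14 replicate 2, at adjusted p up to 0.0647.

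Tnn (tenascin N, also called tenascin W, ENSMUSG00000026725, chr1:160085029-160153580, minus strand, 5817 bases of exon) was at 9.26 to 12.1 CPM at day 0 and at 8.51 to 10.4 CPM at day 7. At day 14 it was at 30.5 CPM in replicate 1 and at 6.89, 3.72 and 5.55 CPM in replicates 2 to 4. At day 21 it was at 46.6, 5.41 and 13.9 CPM. The 7 libraries of days 14 and 21 lay on both sides of the day 0 range, 3 above it and 4 below it. The coefficient of variation was 11.5% and 8.80% over the day 0 and day 7 libraries, and 108% and 98.8% over those of days 14 and 21. The log2 fold change was 0.10 ± 0.60 (SE) at day 14 (interval -1.17 to 1.37, adjusted p 0.918), and the sign turned without day 14 replicate 1, to -1.04 (adjusted p 0.129). At day 21 it was 1.01 (interval -0.34 to 2.36, adjusted p 0.253), and -0.20 without day 21 replicate 1.

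Postn (periostin, ENSMUSG00000027750, chr3:54361109-54391037, plus strand, 8702 bases of exon), which binds collagen and integrins, was already well expressed before injury. It was at 213, 173, 204 and 165 CPM at day 0, at 246, 187, 265 and 288 CPM at day 7, at 537, 263, 272 and 219.9 CPM at day 14, and at 500.3, 287 and 372 CPM at day 21. Day 7 overlapped day 0 through replicate 2, while days 14 and 21 lay above day 0. On the log2 scale it differed from day 0 by 0.39 at day 7 (adjusted p 0.265), by 0.78 ± 0.25 (SE) at day 14 (adjusted p 0.0243) and by 1.03 at day 21 (adjusted p 0.00786). The day 14 call was lost without day 14 replicate 1, at 0.39 and an adjusted p of 0.117, and without day 0 replicate 2 or 4, at 0.71 and 0.69. The day 21 call was lost without day 21 replicate 1, at 0.77 and an adjusted p of 0.0617.

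Spon1 (spondin 1, ENSMUSG00000038156, chr7:113765998-114043370, plus strand, 10382 bases of exon), a secreted adhesion protein best known from the nervous system, did not pass the test on any day. It was at 278 to 363 CPM at day 0, at 312 to 400.2 CPM at day 7 and at 311 to 345 CPM at day 21. At day 14 it was at 383, 175, 237 and 212 CPM, so that replicate 1 lay above every day 0 library and the other 3 lay below every day 0 library. The log2 fold change at day 14 was -0.41 ± 0.19 (SE, adjusted p 0.104), and -0.71 without day 14 replicate 1 (adjusted p 0.00136), which passed the test. At days 7 and 21 the values were 0.08 (interval -0.31 to 0.48) and -0.05 (interval -0.47 to 0.38).

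Cthrc1 (ENSMUSG00000054196, chr15:39076932-39087121, plus strand, 1593 bases of exon) was at 4.21, 3.08, 2.98 and 2.45 CPM at day 0 and at 9.40, 3.18, 6.43 and 9.51 CPM at day 7. It was at 51.7, 15.9, 15.7 and 7.18 CPM at day 14 and at 39.6, 8.32 and 34.4 CPM at day 21. At day 7 replicate 2 was within the day 0 range and the other 3 above it, and all libraries of days 14 and 21 lay above day 0. The log2 fold change was 1.16 at day 7 (interval -0.06 to 2.39, adjusted p 0.151), and 1.14 in a fit of days 0 and 7 alone, where it passed the test (adjusted p 0.0214). It was 2.83 ± 0.59 (SE) at day 14 (adjusted p 0.00185), or 2.00 without day 14 replicate 1 (adjusted p 0.00604). It was 3.11 at day 21 (adjusted p 0.00145). Day 21 was also called above day 7, by 1.94 on the log2 scale (adjusted p 0.0392). That call was lost in 7 of 16 alternatives, which were limma voom and the fits without any single day 7 library or without day 21 replicate 1 or 3, at adjusted p up to 0.146.

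Fap (ENSMUSG00000000392, chr2:62500943-62574075, minus strand, 5662 bases of exon) was low throughout, with 10 to 29 counts per library at day 0 and 41 to 73 at day 14. In CPM it was at 0.647, 1.45, 1.84 and 1.51 at day 0, at 1.76, 1.67, 1.37 and 1.66 at day 7, at 4.31, 3.13, 3.20 and 2.48 at day 14, and at 3.77, 2.62 and 2.76 at day 21. Days 0 and 7 overlapped, and days 14 and 21 lay above both. Against day 0, the log2 fold change was 0.24 at day 7 (adjusted p 0.583), 1.26 ± 0.29 (SE) at day 14 (adjusted p 0.0041) and 1.16 at day 21 (adjusted p 0.0112). Without day 21 replicate 1 the day 21 value was 0.94 and missed the threshold (adjusted p 0.0645).

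Lrrc15 (ENSMUSG00000052316, chr16:30269302-30283256, minus strand, 5310 bases of exon) was barely detected before injury, with 3, 0, 1 and 1 counts in the day 0 libraries. It passed the filter on low counts only through libraries after bleomycin, where it was high. Against day 0, only a rise could therefore have been called. It was at 0.566, 0.167, 0.989 and 0.951 CPM at day 7, at 8.21, 3.19, 1.77 and 1.39 CPM at day 14, and at 6.80, 1.25 and 3.18 CPM at day 21. Day 7 replicate 2, with 3 counts, lay within the day 0 range, and all libraries of days 14 and 21 lay above it. Over pooled counts scaled by library size, the ratio to the 5 counts of day 0 was 8.74 at day 7 (95% interval 3.49 to 28.2), 47.9 at day 14 (20.2 to 149) and 48.2 at day 21 (20.3 to 150.1). These intervals cover counting error alone. The fitted log2 fold changes, which depend on the prior count at such low levels, were 3.01 (adjusted p 0.0345), 5.44 (adjusted p 0.000318) and 5.48 (adjusted p 0.000442). Without day 14 replicate 1, which held 139 of the 243 day 14 counts, the day 14 value was 4.64 (adjusted p 0.000749). Without day 21 replicate 1 the day 21 value was 4.70 (adjusted p 0.00241), and without day 0 replicate 1 both were higher, at 6.25 and 6.27. At day 7 the call was lost without day 0 replicate 2, 3 or 4 or day 7 replicate 1, 3 or 4, at adjusted p 0.0602 to 0.0901, with the mitochondrial share in the fit (2.42, adjusted p 0.166), with limma voom (2.76, adjusted p 0.139) and within the libraries under 2.5% mitochondrial counts (2.72, adjusted p 0.102).

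Between day 7 and day 14, 3 members were called higher (Sparc, Fap and Lrrc15) and 1 lower (Tnxb), against 2.77% and 3.23% of all genes. Lrrc15 rose by 2.43 on the log2 scale (adjusted p 0.039), or 1.65 without day 14 replicate 1 (adjusted p 0.104), and this call was lost in 8 of 17 alternatives. Fap rose by 1.02 (adjusted p 0.0446), and this call was lost in 7 of the 8 fits that left out a library. Between day 7 and day 21, 4 members were called higher (Fn1, Cthrc1, Sparc and Lrrc15) and none lower, against 5.20% and 4.34% of all genes. Lrrc15 rose by 2.47 (adjusted p 0.0322), or 1.70 without day 21 replicate 1 (adjusted p 0.174), and this call was lost in 6 of 16 alternatives. In each of the 4 fits that left out a day 7 library, Sparc was the 1 member called higher at day 21 than at day 7. Between day 14 and day 21 no member was called. Of all genes, 0 were called by edgeR (0%), 1714 had an unadjusted p under 0.05 (9.82%) and DESeq2 called 106. The widest intervals among the members here were those of Lrrc15, from -1.34 to 1.41, and Tnn, from -0.44 to 2.26.

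Day 14 replicate 1 was the highest library of its day in 9 of the 10 members, and in Tnxb it was the next to lowest of its 4. Day 14 replicate 4 was the lowest of its day in 6 members. At day 21, replicate 1 was the highest in 6 members and replicate 2 the lowest in 7. Day 14 replicate 1 also had the lowest mitochondrial share of day 14, and the part of this share in its high values was not tested. With the share as a covariate, 2 members were called higher at day 7 (Fn1 and Tnc) and none lower, against 4.97% and 2.30% of all genes. At day 14 the same fit called 7 higher and 1 lower, against 12.3% and 11.7% of all genes, and at day 21 again 7 and 1, against 13.0% and 10.7% of all genes. Within the libraries under 2.5% mitochondrial counts, where day 7 could be compared with 2 day 0 libraries, 2 members were called higher at day 7 (Fn1 and Tnc) and Tnxb lower, against 7.54% and 5.27% of all genes. Within the libraries over 3.5%, with 2 day 0 and 3 day 14 libraries, 5 were called higher at day 14 and Tnxb lower, against 8.78% and 8.87% of all genes. Postn and Fap were not called there, at log2 fold changes of 0.44 (adjusted p 0.106) and 0.80 (adjusted p 0.134). Of the day 21 libraries, 1 lay over 3.5% and 2 between the limits, so day 21 was not compared within a set.

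**Figure D4:**
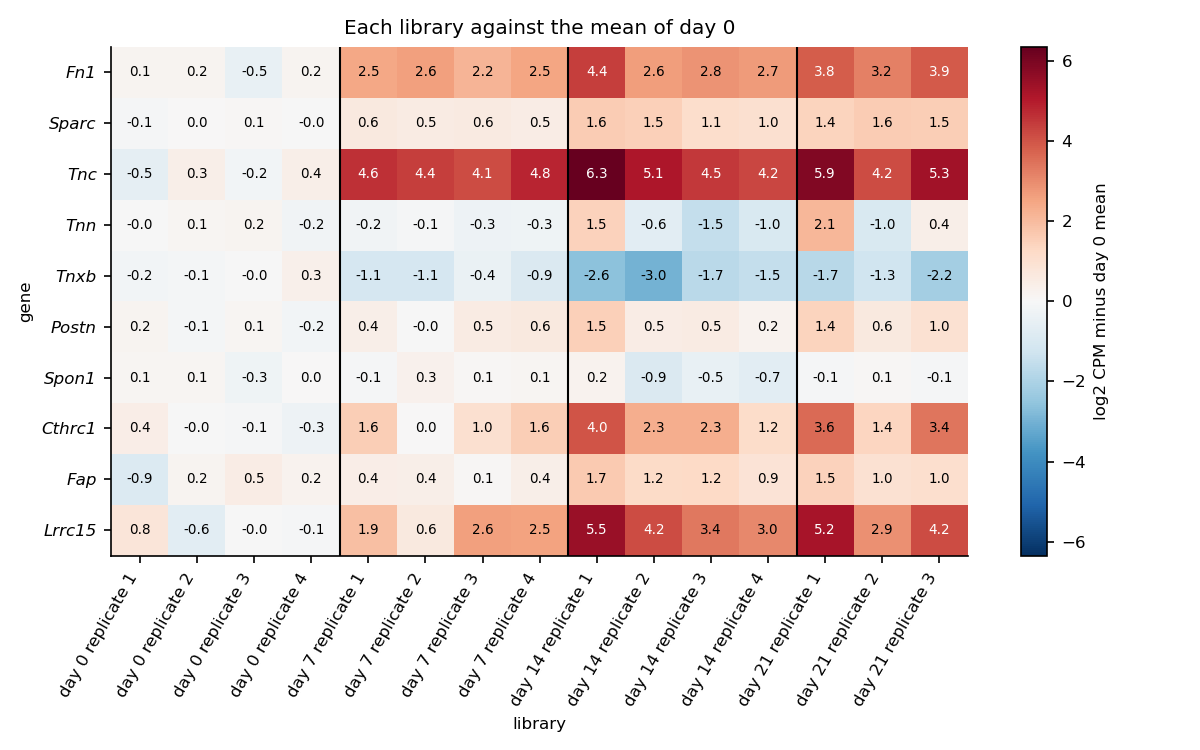
Log2 CPM of each member in each of the 15 libraries minus the mean of the day 0 libraries (colour and printed value, red higher, blue lower; prior count 2). Day 14 replicate 1 and day 21 replicate 1 carry the highest Tnn, at 1.48 and 2.09, and Tnxb is below 0 in all 11 libraries after bleomycin.

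Once each day's mean was removed, the log2 CPM of some members still moved together from library to library. Across the 15 libraries, which share depth and composition between genes, the Pearson correlation of these deviations was 0.915 for Postn and Lrrc15, 0.911 for Postn and Cthrc1 and 0.879 for Cthrc1 and Lrrc15. Tnn, whose day means were not called, had 0.85 with Tnc and 0.805 with Postn. Fap and Lrrc15, both called higher at days 14 and 21, had 0.142. Tnxb had negative values with all other members, from -0.672 with Sparc to -0.011 with Spon1. These correlations are descriptions and carry no p. The libraries did not weigh equally in them. Postn had a coefficient of variation of 12.4% and 17.5% at days 0 and 7, and of 44.8% and 27.8% at days 14 and 21. Cthrc1, Tnc and Tnn also varied more at days 14 and 21, so those libraries, day 14 replicate 1 among them, weighed most.

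**Figure D5:**
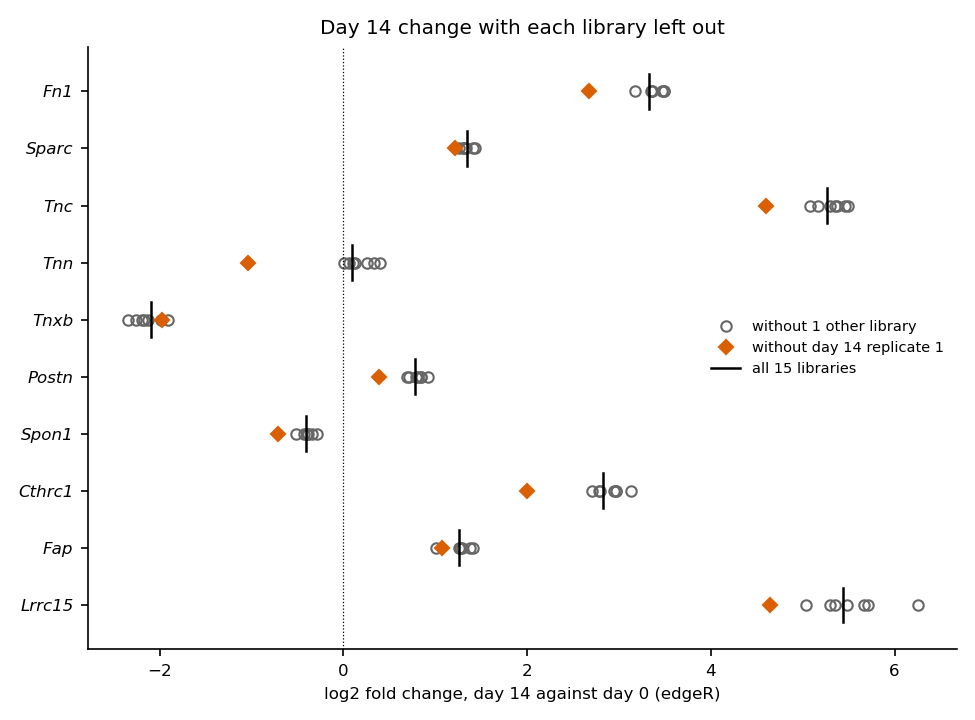
Log2 fold change of each member at day 14 against day 0 with all 15 libraries (black line), without day 14 replicate 1 (diamond) and without each other library of the 2 days (circles). Without day 14 replicate 1, Tnn moves from 0.10 to -1.04, Spon1 from -0.41 to -0.71 and Postn from 0.78 to 0.39, while Sparc stays at 1.21 and Tnxb at -1.97.

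The genes whose log2 CPM followed Cthrc1 most closely over the 15 libraries, among 15341 genes with a mean of at least 1 CPM, were Col5a3 (Spearman rho 0.961), Ap3s1, Syt8 and 9530068E07Rik (0.954 each) and Ecm1 (0.95). Col5a3, a chain of collagen V, had a day 0 level of 6.12 ± 1.73 CPM (SD, n = 4) and a day 21 level of 88.5 ± 64.6 CPM (SD, n = 3). The mean of the 10 members, each scaled over libraries, was followed most closely by Lamc1 (0.968), Islr (0.961), Ssc5d (0.957), Col6a3 (0.95) and Col1a2 (0.939). Of these, Lamc1 is a laminin chain, Col6a3 and Col1a2 are collagen chains and Ssc5d is a scavenger receptor that binds matrix proteins.

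Genes of the lists below are read against the shares of all genes called at days 7, 14 and 21, which were 8.78%, 12.0% and 12.4% higher and 7.36%, 11.2% and 10.1% lower. Of 9 tested paralogues (11 listed), 4 were called higher and none lower at day 7, 3 higher and 2 lower at day 14, and 4 higher and 1 lower at day 21. Fstl1, a Sparc relative secreted by fibroblasts, rose from 127 ± 15.8 CPM at day 0 to 568 ± 268 CPM at day 14, a log2 fold change of 2.16 (adjusted p 1.09e-05). Tgfbi, the paralogue of periostin, rose by 1.53 at day 14 (adjusted p 0.00029). Smoc1, another Sparc relative, fell by 1.65 at day 14 (adjusted p 0.0181), from 3.53 ± 1.59 to 1.12 ± 0.680 CPM. The median over the tested paralogues was 0.51 at day 14, beside 1.30 for the members.

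Of 12 receptors and adhesion partners of these matrix proteins, 3, 6 and 6 were called higher at days 7, 14 and 21, and 1, 2 and 1 lower, the lower calls near the share of all genes. The gene called lower at day 7 was Tns1, an adaptor inside the cell that is no receptor, those at day 14 were Tns1 and Itga8, and that at day 21 was Itga8. Itgb6, the epithelial integrin chain that binds fibronectin and tenascin C and activates latent TGF-beta, rose by 1.82 at day 14 (adjusted p 0.000211), from 35.2 ± 14.0 to 124 ± 24.4 CPM. Itga5, whose product pairs with Itgb1 as the main fibronectin receptor, rose 2.82-fold (adjusted p 0.00112). Itga8, a fibronectin and tenascin C receptor of alveolar fibroblasts and smooth muscle, fell by 1.49 (adjusted p 0.0005), from 228 ± 30.1 to 81.5 ± 29.2 CPM. The matrix ligands Fn1 and Tnc and the receptor Itga8 moved in opposite directions at days 14 and 21.

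Collagen chains and enzymes that the members bind were called higher in 7, 8 and 8 of 8 genes at days 7, 14 and 21. Col1a1, the main chain of collagen I, was at 313 ± 74.8 CPM at day 0 and 2282 ± 1885 CPM at day 14, a log2 fold change of 2.87 (adjusted p 0.000208). The summed CPM of these 8 genes was 16470 in day 14 replicate 1 and 4380 to 6143 in the other day 14 libraries, all above the 1295 to 1894 of day 0. In the same library the alveolar epithelial genes summed to 8501 CPM, against 17253 to 21363 CPM in the other 3. Col5a2 rose by 2.82 (adjusted p 6.9e-06) and Col5a1 by 2.81 (adjusted p 0.000248). Without day 14 replicate 1 these log2 fold changes were 2.08 for Col1a1, 2.34 for Col5a2 and 1.98 for Col5a1, and all 3 were still called. Of 9 genes known to respond to TGF-beta, 3, 4 and 4 were called higher and none lower. Ltbp2, a matrix protein of elastic fibres, rose by 2.74 at day 14 (adjusted p 3.72e-07), Acta2, the smooth muscle actin of myofibroblasts, by 1.87 (adjusted p 0.000418), and Ccn2, a secreted matricellular protein, by 1.65 (adjusted p 0.00199).

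Summed markers of cell types that contribute to whole lung went in both directions, some lists rising and others falling. Their part in the members' values was not tested. The summed CPM of 6 general fibroblast markers (Pdgfra, Pdgfrb, Dcn, Lum, Col6a1 and Col6a2) was 1051 to 1288 at day 0, 1740.1 to 2465 at day 7, 1378 to 2385 at day 14 and 1824 to 2011 at day 21. Of these, 3, 3 and 4 were called higher. None was called lower. At day 14 Col6a1 rose from 331 to 613 mean CPM and Col6a2 from 209 to 484 mean CPM, while Pdgfra was at 305 against 358 mean CPM (log2 -0.23, adjusted p 0.458) and Dcn at 123 against 164 mean CPM (log2 -0.42, adjusted p 0.0974). The 6 markers of alveolar fibroblasts (Tcf21, Npnt, Inmt, Limch1, Fgfr4 and Scn7a) went from 3550.3 to 4437 CPM at day 0 to 1224 to 2019 CPM at day 14, and 4 were called lower. The 6 adventitial fibroblast markers summed to 342 to 433 CPM at day 0 and 258 to 356 CPM at day 14, with 1 called higher and 3 lower. The 4 markers of scar-associated macrophages (Spp1, Trem2, Gpnmb and Fabp5) went from 126 to 181 CPM at day 0 to 568 to 1029 CPM at day 7 and 1677 to 4394 CPM at day 14, with all 4 called higher at day 14. As in 9 of the 10 members, day 14 replicate 1 had the highest sum of these macrophage markers, and also of the general fibroblast markers, at 2385 CPM where the other 3 had 1378 to 1544 CPM. The 5 smooth muscle markers summed to 176 to 256 CPM at day 0 and, at day 14, to 477 CPM in replicate 1 and 208 to 239 CPM in the other 3. The 4 mesothelial markers summed to 168 to 302 CPM at day 0 and 383 to 909 CPM at day 14, with 1 called higher.

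Other tissue that a lung dissection can carry was checked in the same way. The 8 cartilage and bone markers, given because Tnn and Sparc are also known from skeletal tissue, summed to 0.508 to 1.04 CPM at day 0, 4.90 to 6.87 CPM at day 14 and 5.07 to 8.35 CPM at day 21. Only 1 gene of this list, Hapln1, passed the filter, so the sum does not speak for the 8 markers as a set. Hapln1 was called higher at day 14 (log2 3.07, adjusted p 1.21e-05) and at day 21 (log2 3.18, adjusted p 1.7e-05), and it is named after its values were seen. It could hold at most 1.04 CPM in a day 0 library, and the filter also counted the later libraries, where it was high. Its calls are therefore no independent support. Of the 8 markers, Matn1 and Col9a1 were at 0 in all day 0 libraries. The 5 heart muscle markers summed at day 0 to 18.2 and 37.4 CPM in replicates 1 and 2 and to 224 and 163 CPM in replicates 3 and 4. They summed to 18.7 to 36.1 CPM at day 14, and at day 21 to 665 CPM in replicate 1 and 11.8 and 20.2 CPM in replicates 2 and 3. At day 7 replicate 4 stood apart, with a sum of 558 CPM where its fellow libraries had 24.1 to 49.6 CPM. Day 21 replicate 1 is also the library on which the day 21 calls of Postn and Fap depend, and a link to its heart marker sum was not tested. The 5 adipose markers summed to 1.55 to 51.6 CPM at day 0, to 127 CPM in day 7 replicate 4 and 4.64 to 22.7 CPM in the rest of day 7, and to 0.400 to 0.650 CPM at day 14. The 5 endothelial markers summed to 2439 to 2894 CPM at day 0 and 1322 to 2263 CPM at day 14, the 4 airway markers to 27253 to 33847 CPM and 2998 to 7228 CPM, and the 5 alveolar macrophage markers to 776 to 1124 CPM and 1081 to 3655 CPM.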

How the data were processed

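Whole lung RNA of 15 libraries was sequenced. The authors trimmed the reads, aligned them to mm10 with HISAT2 2.1.0, dropped multi-mapped reads and deposited the HTSeq 0.6.0 counts of each Ensembl gene without normalization. The annotation release and the strand setting were not given in the sources used here. Symbols, coordinates and exon lengths came from GENCODE M21, which matched 33267 of 33340 identifiers. The members and gene lists were chosen with earlier results of these data known.

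Counts were fitted with edgeR 4.0.16 in R 4.3.3 (filterByExpr on the day group, TMM, glmQLFit and glmQLFTest, 1 fit of all libraries, Benjamini-Hochberg adjustment over the 17457 genes kept). Log2 CPM used a prior count of 2. The common biological coefficient of variation was 22.8%, and the procedure was tested on simulated data. No pair of replicates differed by as little as sampling noise. The genes named were the 10 members, the 3 called genes of each list with the largest day 14 log2 fold change, and the 5 closest to Cthrc1 and to the members' mean. Tns1, Pdgfra, Dcn, Col6a1, Col6a2, Hapln1, Matn1 and Col9a1 fall outside this rule and were named after their values were seen. Alternatives were DESeq2 1.42.0, limma voom (3.58.1), other scaling and filters, fits of 2 days, a replicate block, the mitochondrial share as a covariate or as 2 sets of libraries, no fold threshold, and leaving out each library. Groups came from the titles. For days 0, 7 and 14 the series text states fewer replicates than the titles. A gene of each of the TGF-beta response and macrophage lists is not reported here, and both lists were counted without it.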

Additional observations from a re-analysis of the deposited data

Results flagged for a closer look

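In 4 of the 30 groups of 4 libraries checked, 1 library stood further from the other 3 than Dixon's criterion at the 95% level allows. Chance flags about 5% of such groups. Day 0 replicate 3 was the lowest library of its day for Fn1, at 291 CPM against 449 to 455 CPM. Day 14 replicate 1 was the highest library of its day for Fn1, at 8539.9 CPM against 2514 to 2877 CPM. The same library was the highest for Tnn, at 30.5 CPM against 3.72 to 6.89 CPM, and for Postn, at 537 CPM against 219.9 to 272 CPM. These 3 results come from 1 library and are not independent of each other. Its mitochondrial share was 2.10% against 3.74% to 4.14% in the other day 14 libraries, and the part of that difference was not tested.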

How the results depend on the processing

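Over the 60 member results (10 genes in 6 comparisons), 903 of 1009 alternative values kept their direction and side of the threshold, 62 lost a call, 13 gained one and 31 turned sign, the last in results that were not called. The cause of each change was not tested.

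Counts of called members against day 0 were 2 to 4 at day 7, 7 to 8 at day 14 and 6 to 8 at day 21 with 1 library left out, beside 4, 8 and 8 with all libraries. The day 7 count fell to 2 without day 0 replicate 3 or 4 or day 7 replicate 1 or 4, and also with the mitochondrial share as a covariate. Between days 14 and 7 the count was 1 to 5 instead of 4, at 1 without day 7 replicate 3 or 4 or day 14 replicate 2 and at 2 without day 7 replicate 1 or 2. Between days 21 and 7 it was 1 to 4 instead of 4, at 1 without any single day 7 library or day 21 replicate 1, at 2 without day 21 replicate 3, and at 2 with limma voom.

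Over all genes, leaving out 1 library gave 2053 to 2865 calls at day 7, 3406 to 4115 at day 14 and 3349 to 3822 at day 21 against day 0. It gave 340 to 1300.0 calls between days 14 and 7, 966 to 1822 between days 21 and 7 and 0 to 127 between days 21 and 14. DESeq2 called 1642 genes between days 14 and 7 and 106 between days 21 and 14, where 37 were called with no filter. With the mitochondrial share as a covariate, 1269 genes were called at day 7 against day 0, 218 between days 14 and 7 and 942 between days 21 and 7. Without a fold threshold, 4365 were called at day 7.

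The sign of Tnn at day 14 against day 0 turned with limma voom (-0.41), the replicate block (-0.37), the mitochondrial covariate (-0.080) and the libraries over 3.5% mitochondrial counts alone (-0.99), and ranged from -1.04 to 0.39 with 1 library left out. Tnn between days 14 and 7 gave -0.19 with voom, -0.13 with the block and -0.79 to 0.62 with 1 library left out. At day 21 that range was -0.20 to 1.43. Tnc between days 21 and 14 gave 0.089 with voom, 0.027 with total count scaling, 0.0040 with a mean of at least 1 CPM, 0.045 with the block and 0.14 with the covariate. Lrrc15 there gave -0.13 with the block. Spon1 gave -0.22 at day 7, 1.22e-05 at day 21 and 0.22 between days 21 and 7 with the covariate, and -0.043 at day 7 in libraries under 2.5%. With 1 library left out, Spon1 at day 7 ranged from -0.017 to 0.12 and Fap at day 7 from -0.012 to 0.39.

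Between days 21 and 14, where no member was called, leaving out 1 library gave -0.45 to 0.62 for Tnc, -0.29 to 2.01 for Tnn, -0.10 to 1.07 for Cthrc1, -0.30 to 0.046 for Fap and -0.74 to 0.81 for Lrrc15. The low value of each came without day 21 replicate 1 and the high value without day 14 replicate 1.

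Whether replicate numbers pair the libraries was not settled, because differently numbered libraries were not correlated for reference. Deviations of same-numbered libraries from their day means correlated at -0.244 to 0.397 over 21 pairs. The replicate block left 4, 8 and 8 members called against day 0 at days 7, 14 and 21. It called 2915, 4113 and 3752 of the 17457 genes there. Under the block, Fap between days 14 and 7 lost its call, at 1.01 (adjusted p 0.0678). Depth limits Lrrc15 most, with 5 counts over the day 0 libraries together.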
